A study of Rattus norvegicus with 20 samples.

Results

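Olfactory marker protein (Omp) is made in mature olfactory sensory neurons, and its signal differed 11.8-fold among 12 arrays of rat nasal respiratory epithelium. These 12 of the 20 arrays in the study were ranked by the signal of the brighter of 2 Omp probe sets. The 4 arrays chosen by the highest of these signals were compared with the 4 chosen by the lowest for every other gene, and the genes picked out in this way were then looked up in 8 arrays of olfactory epithelium. The ranking used a measured value and not a label, so the difference between high and low arrays is a description and carries no test.

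The rats were adult Sprague-Dawley animals, an outbred laboratory stock, with no treatment, no genetic modification and no disease by their labels. Epithelium was collected by hand from the septum and turbinates of the nose and kept in RNA Later, a preservative, so each array holds the mixed RNA of a dissected tissue. There were 6 female respiratory, 6 male respiratory, 6 male olfactory and 2 female olfactory arrays, of rats aged 11, 13 or 14 weeks. The 12 respiratory arrays came from 12 animals by the numbers in their labels, and the 20 arrays from 13 animals, 7 of which gave both tissues.

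The nasal cavity is lined in part by respiratory epithelium, which is made of ciliated, mucus-secreting and basal cells and clears and humidifies the air. Olfactory epithelium covers the rear and upper parts and holds sensory neurons, sustentacular cells that support them and carry many detoxifying enzymes, basal stem cells and secretory glands. In a mature neuron an odorant receptor acts through the G protein subunit encoded by Gnal to switch on adenylyl cyclase 3. Cyclic AMP then opens a cation channel containing Cnga2 and Cnga4, and the calcium that enters opens the chloride channel Ano2. Respiratory epithelium also holds resident leukocytes, among them macrophages, dendritic cells and T cells.

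Signals are in the linear, arbitrary units deposited for each probe set, and differences are given on the scale log2(signal + 16), where 1 stands for 2-fold and low signals are compressed. The level of background was set on each array at the 95th percentile of 27 control probe sets for bacterial transcripts, and it lay between 32.2 and 64.9 on the respiratory arrays. The median signal of a respiratory array ran from 143 to 192. How precise these values are is limited by the small number of arrays. Female respiratory 8 and male respiratory 7 stood apart from the other 10 on the first 2 principal components, which held 29.7% and 14.98% of the variance of these arrays. Both fell in the middle of the Omp ranking, so they are in neither the high nor the low set. The third component held 10.9% of the variance and had a Pearson r of 0.87 with log2 Omp over the 12 arrays. The mean of 25 respiratory epithelium enzymes was 10.9 to 11.7 (log2) on the respiratory and 9.27 to 10.0 on the olfactory arrays. This list was chosen with earlier results of these data known, so it is no independent check of the tissue labels.

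The high arrays had Omp signals of 9625 in female respiratory 7, 5743 in female respiratory 3, 5359 in male respiratory 1 and 3319 in female respiratory 6. The middle arrays had 2944 in male respiratory 7, 2083 in female respiratory 9, 1785 in female respiratory 8 and 1424 in female respiratory 4. The low arrays had 1364 in male respiratory 8, 1078 in male respiratory 2, 1053 in male respiratory 4 and 815 in male respiratory 3. The ranking therefore ran without a clear gap at either boundary. On either side of the upper one lay 3319 and 2944, and of the lower one 1424 and 1364. All 12 signals were above background. On the olfactory arrays Omp ran from 21368 to 26936, and as a share of their mean the high arrays held 24.6% ± 10.8 (SD, n = 4), the middle arrays 8.43% ± 2.66 (n = 4) and the low arrays 4.41% ± 0.92 (n = 4). In RNA from whole tissue, fewer cells of a type and less RNA per cell cannot be told apart.

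**Figure D1:**
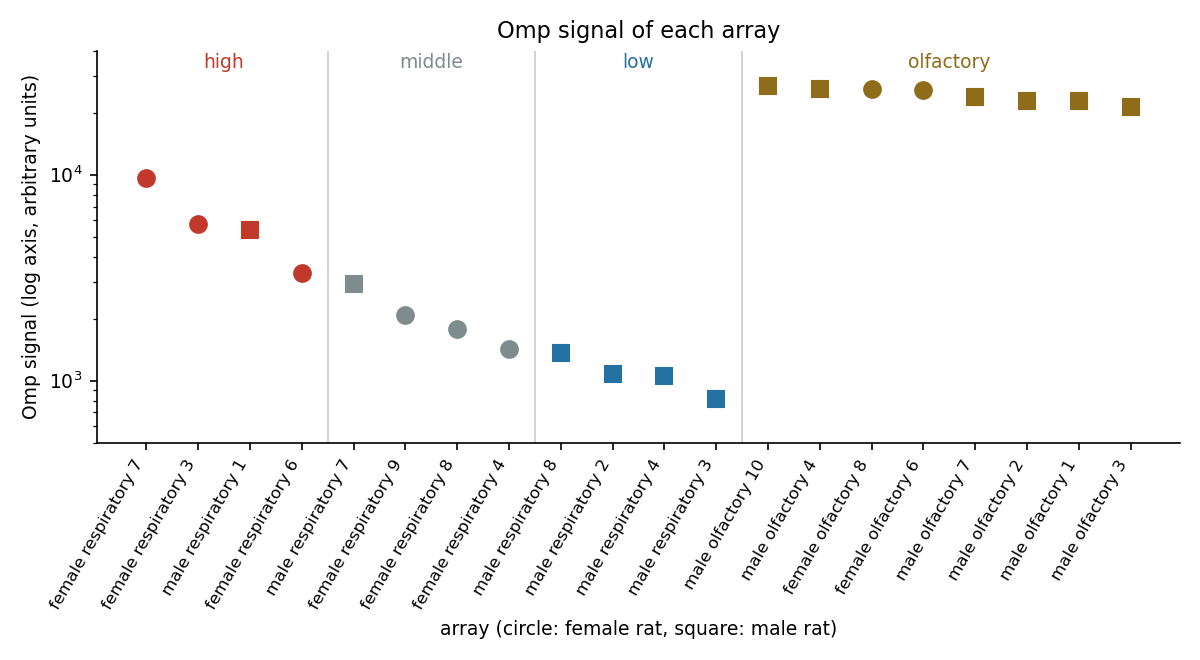
Omp signal (vertical axis, logarithmic, arbitrary units) of each array: the 12 respiratory arrays in rank order, then the 8 olfactory arrays. Circles are female and squares male rats, and all 4 low arrays are male; the highest respiratory array reached 9625, under the lowest olfactory array at 21368.

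A second Omp probe set, which the ranking did not use, had a Pearson r of 0.98 with the first over the 12 arrays and placed the same 4 arrays highest. Its signals were 4910, 2405, 2102 and 1862 on the high arrays and 782, 617, 609.9 and 547 on the low arrays. Over the other 21 genes of olfactory signal transduction that were above background on all 12 arrays, the mean level was 9.63 to 10.5 (log2) in the high, 9.05 to 9.40 in the middle and 8.94 to 9.07 in the low arrays, against 10.7 to 11.48 in the olfactory arrays. So the high arrays stood clear of the rest on this list, while the middle and low arrays overlapped. Ranking by this pathway in place of Omp, over all 26 of its other measured genes, kept the same 4 high arrays and changed 2 of the 4 low arrays, to female respiratory 4 and male respiratory 7.

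Sex was unevenly spread over the ranking: the high set held 3 females and 1 male, the middle set 3 females and 1 male, and the low set 4 males. Over all 12 arrays log2 Omp averaged 11.63 ± 1.06 (SD, n = 6) in females and 10.70 ± 1.04 (n = 6) in males, a difference of 0.93 with a two-sided exact permutation p of 0.156 (0.234 after Benjamini-Hochberg adjustment over 3 relations). The RNA integrity number, which grades the breakdown of RNA, averaged 8.93 in 3 high and 9.20 in 4 low arrays (exact permutation p = 0.114, adjusted over 3 labels 0.343, smallest possible 0.0286). Across the 10 respiratory arrays with such a number, its Pearson r with log2 Omp was -0.58 (permutation p = 0.0702, adjusted 0.211) and Spearman's rho -0.62 (p = 0.0628). Without the 2 arrays farthest from the median, r was -0.48. Age averaged 12 weeks in the high and 12.25 weeks in the low arrays (exact permutation p = 1). The middle arrays averaged 13.75 weeks, from 13 to 14, and held no rat of 11 weeks. The part of age in differences between the middle and the other sets was not tested. Values within each sex and with the RNA integrity number as a term are given with the results.

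A gene was counted as following Omp when its mean was higher by 1 or more on the log2 scale in the high than in the low arrays, every high array lay above every low array, and all high arrays were above background. Of 14216 genes other than Omp, 146 did so, which is 1.03%. A gene was counted as opposing Omp under the mirror rule, and 114 genes, or 0.802%, did so. Since the ranking fixed which arrays were compared, these counts describe the 8 arrays. Without female respiratory 6 there were 242 followers, and the opposing genes numbered 210 without male respiratory 1 and 175 without male respiratory 2. The genes nearest the limit were Cdc14b at 1.01 inside and Id4 at 0.999 outside among those higher, and Plcb2 at -1.01 inside and Rac2 at -0.997 outside among those lower. The median difference was 1.36 for the followers and -1.24 for the opposing genes, beside -0.002 over all genes. When a gene was the mean of all its probe sets, 118 of these followers and 98 of these opposing genes met the rules. With the arrays ranked by the other transduction genes in place of Omp, 86 of these followers and 69 of these opposing genes did so. Of the followers, 32 were in 1 or more of 26 gene lists of cell types and pathways, as were 30 of the opposing genes.

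Genes of olfactory signal transduction were the largest named group of followers. Of 26 measured members, 12 followed Omp and none opposed it, and the median difference over the list was 0.96, against -0.002 over all genes. Cnga2, the main subunit of the cyclic AMP-gated channel, had signals of 2215, 1233.6, 1007 and 735 in the high arrays (in the order of the ranking, here and below), 166, 483, 668 and 321 in the middle arrays, and 259, 215, 294 and 294 in the low arrays. Every high array lay above every other respiratory array, and the middle and low arrays overlapped. The olfactory arrays ran from 3497 to 8519, so the high arrays held 21.1% and the low arrays 4.32% of the mean olfactory signal.

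Adcy3, the adenylyl cyclase of the pathway, had signals of 2812, 1563, 1313 and 956 in the high, 692, 758, 482 and 571 in the middle and 605, 441, 406 and 399 in the low arrays. Its Pearson r with log2 Omp over the 12 arrays was 0.97, shared only with Sec14l2 among the genes above background on all of them. Gnal gave 4555, 2812, 1921 and 1488 in the high, 287, 1012, 399 and 567.6 in the middle and 562, 530, 646 and 376 in the low arrays. Ano2, the chloride channel, gave 1331, 796, 677 and 434 in the high against 184, 159, 141 and 76.0 in the low arrays. In these genes the highest value was always that of female respiratory 7, the array with the most Omp, and the lowest high value that of female respiratory 6.

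S100a5, a calcium-binding protein of olfactory neurons, and Gng13, a G protein gamma subunit found in olfactory neurons and in taste and tuft cells, followed Omp between the outer sets but not on every middle array. S100a5 gave 10088, 4641, 5987 and 2573 in the high, 1073, 1598, 947 and 699 in the low and 2370, 1311, 10162 and 1582 in the middle arrays. Gng13 gave 3968, 2354, 1571 and 1208 in the high, 459, 423, 333 and 351 in the low and 1949, 488, 4690 and 575 in the middle arrays. In both genes the highest of the 12 values was that of female respiratory 8, whose Omp signal ranked seventh and which stood apart on the first components. The other followers of the list were Cnga4 (2.09), Reep1 (1.79), Slc24a4 (1.67), Lhx2 (1.54), Ebf1 (1.08) and Pde1c (1.03), each given as its log2 difference between high and low arrays.

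Ebf1 encodes a transcription factor of the olfactory neuron lineage, and its family binds a palindrome of TCCC and GGGA with any 2 bases (NN) between them, called the EBF motif here. The 250 bases upstream of the annotated start were searched for these letters in the RefSeq promoters of the assembly GRCr8, which were found for 113 of the 146 followers. The letters stood in 3 of the 113 (2.65%) and in 2 of 81 opposing genes with a promoter (2.47%). They stood in 111 of 11734 genes of the array (0.946%), in 3 of 533 genes independent of Omp as defined below (0.563%) and in 247 of all 33469 promoters (0.738%). The matches among the followers were in Ank2, Cldn6 and Cnga2. The sequences of Cnga2 (chrX:154741638-154741707, plus strand, first matching base 98 bases upstream of the start) and of Cldn6, a tight junction protein (chr10:13215680-13215749, plus strand, likewise 98 bases upstream), are printed 5′ to 3′ to show a channel gene that tracked Omp and a gene outside the neuron lists with the same letters, in capitals.
Cnga2: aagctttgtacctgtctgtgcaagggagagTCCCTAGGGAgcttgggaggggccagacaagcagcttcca
Cldn6: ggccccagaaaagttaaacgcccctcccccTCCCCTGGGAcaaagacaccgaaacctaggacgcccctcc
A match shows the letters in this window and no more. The difference between high and low arrays was 2.11 for Cnga2 and 1.86 for Cldn6.

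Odorant receptors themselves gave little to follow. Of 18 measured receptor genes only 4 were above background on all high arrays and none met the rule, although 16 had a positive difference and the median was 0.42. Or1n1 had the largest, with 46.4, 86.7, 28.3 and 52.4 in the high and 6.35, 4.46, 17.4 and 4.89 in the low arrays. It was above background on 2 of 4 high arrays and on none of the low ones. Single receptors are each used by a small share of olfactory neurons, and on the olfactory arrays Or1n1 reached 66.1 to 228. The genes of vomeronasal neurons, the sensory cells of a separate organ, had no follower among 16 measured genes. Only 3 of the 16 were above background on all 12 arrays, so the list's median difference of -0.10 rests mostly on probe sets at or under background on 1 or more arrays. The mean of these 3 was 8.22 to 8.72 (log2) in the high and 7.81 to 8.24 in the low arrays, which overlap. One of them, Gnao1, a G protein subunit used in many neurons, differed by 1.30, with 397, 334, 363 and 132 in the high and 78.7, 113, 86.2 and 162 in the low arrays, and did not meet the rule because the sets overlap.

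Among genes of immature neurons and progenitors, 4 of 28 followed Omp and none opposed it, with a median difference of 0.87. Stmn2, a regulator of microtubules in growing axons, had signals of 3432, 2504, 4062 and 1426 in the high, 417, 639, 959 and 765 in the middle and 781, 601, 926 and 889 in the low arrays. Male respiratory 1 was highest for Stmn2, ahead of both female arrays with more Omp. Lhx2, a homeodomain factor needed in the olfactory lineage, gave 1939, 1659, 2084 and 969 in the high against 518, 418, 563 and 682 in the low arrays. The other followers here were Stmn4 (1.44) and Gap43 (1.31), a growth cone protein.

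Of 40 synapse and axon genes, 7 followed Omp and none opposed it, and 37 had a positive difference, with a median of 0.72. Chga, a protein of secretory granules, had signals of 2327, 1930, 1587 and 827 in the high, 301, 532, 523 and 455 in the middle and 412, 316, 254 and 775 in the low arrays. The lowest high array and the highest low array, male respiratory 3, were close for this gene. Scn9a, a voltage-gated sodium channel, gave 1915, 1335, 937 and 521 in the high and 389.8, 198, 326 and 269 in the low arrays. Uchl1 (1.61), Nrn1l (1.57), Mapt (1.35), Snap25 (1.31) and Faim2 (1.22) made up the rest, and 22 of the 40 genes were under background on 1 or more respiratory arrays.

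Followers were not confined to neuronal genes: of 25 sustentacular cell genes 5 followed Omp and none opposed it. Cyp2g1, a cytochrome P450 typical of olfactory mucosa, had signals of 19909, 19474, 17328 and 11679 in the high, 13865, 6665, 10702 and 6887 in the middle and 9452, 4060, 3998 and 4519 in the low arrays. The high arrays held 67.4% and the low arrays 21.7% of the mean olfactory signal of Cyp2g1, against 24.6% and 4.41% for Omp, although signals near the top of an array's range may not be linear. Cyp1a2, another P450 of this mucosa, gave 6448, 3219, 5398 and 2550 in the high against 1536, 861, 815 and 951 in the low arrays. Ugt2a1, an olfactory UDP-glucuronosyltransferase, gave 10265, 6826, 9903 and 4523 in the high and 3455, 1459, 1887 and 2231 in the low arrays, and its highest value of the 12, at 12433, was again that of female respiratory 8. Cyp2b21 (1.96) and Ermn (1.25) also followed. The list's median difference was 0.54, and its mean level over 24 genes was 11.46 to 11.9 (log2) in the high and 10.9 to 11.2 in the low arrays.

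Of 42 cytochromes P450 in families 1 to 4, 5 followed Omp: Cyp1a1, Cyp1a2, Cyp2b21, Cyp2g1 and Cyp3a9. The median over all 42 was 0.03, beside -0.002 over all genes.

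Secreted proteins gave a mixed picture. Bpifb4, of a family of secreted lipid-binding proteins, had 8832, 3236, 5035 and 3328 in the high and 1557, 943, 478 and 1304 in the low arrays, and its relative Bpifb6 differed by 2.08. Bpifb4 was the only one of 24 measured odorant-binding and gland proteins to follow Omp, and the list's median difference was -0.08. Muc2, a gel-forming mucin, had 1586, 2449, 1452 and 695 in the high and 669, 192, 366 and 249 in the low arrays, so the sets came close at 695 and 669. Wdr17 (2.21), Nol4 (2.17), Slc26a1 (2.05), an anion transporter, Ap3b2 (2.02), a neuronal adaptor protein subunit, and Pcp4l1 (2.02) completed the 15 followers with the largest differences.

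**Figure D2:**
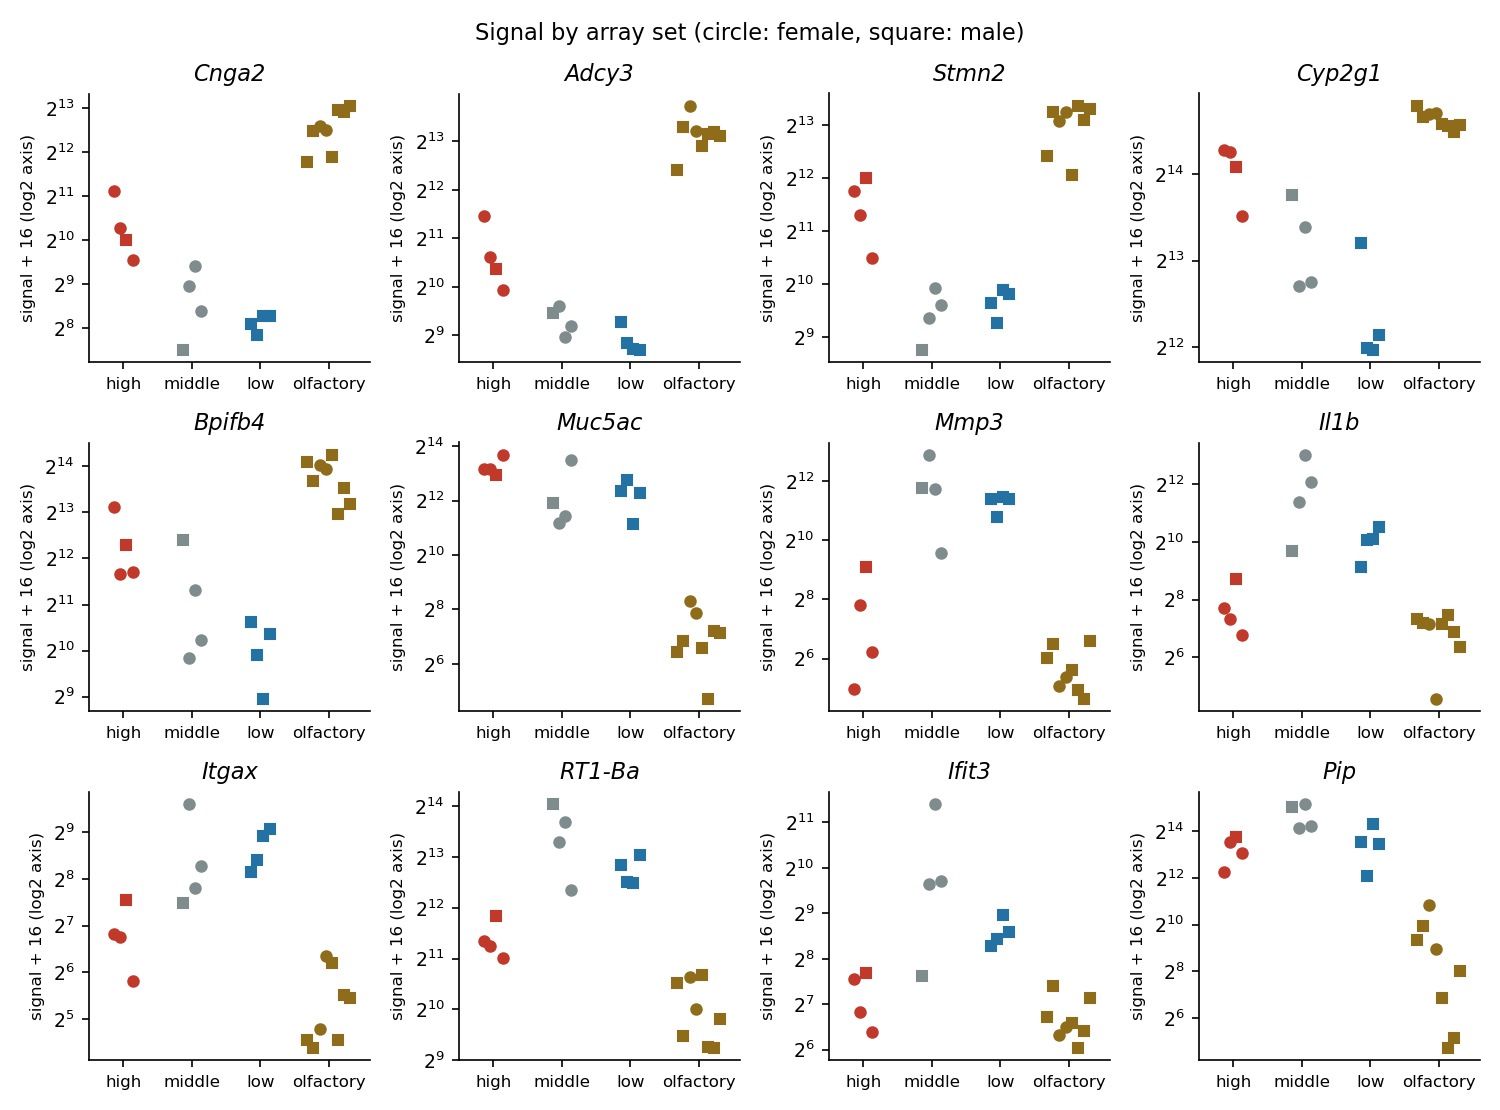
Signal plus 16 (vertical axis, logarithmic to base 2) of 12 genes in the high, middle, low and olfactory arrays, 1 point per array, circles for females and squares for males. In Cnga2, Adcy3, Stmn2, Cyp2g1 and Bpifb4 every high array lies above every low array. The olfactory arrays lie above all respiratory arrays except for Bpifb4, whose lowest olfactory value of 7938 is under the 8832 of female respiratory 7. In Muc5ac every high array lies above every low array, and the olfactory arrays lie under all respiratory arrays. In Mmp3, Il1b, Itgax, RT1-Ba and Ifit3 every high array lies under every low array, and for Itgax and Ifit3 the high and middle sets overlap. Pip overlaps between the high and low sets.

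Cells that flank or accompany olfactory neurons were less regular. None of 18 genes of ensheathing glia and myelin met the rule, which 1.03% of all genes met, and the median difference was 0.13. Gfap, a glial filament protein, gave 162, 97.7, 350 and 142 in the high and 16.1, 110.3, 68.8 and 176 in the low arrays, which overlap. Fabp7, a marker of olfactory ensheathing glia, gave 1032, 399, 926 and 556 in the high and 347, 573, 496 and 223 in the low arrays, which overlap too, and female respiratory 8 had the most at 2166.

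Mmp3, a matrix metalloproteinase, had the most negative difference of the 114 opposing genes, with signals of 15.6, 206, 534 and 58.6 in the high, 3462, 7520, 3351 and 745 in the middle and 2687, 1744, 2794 and 2679 in the low arrays. Its difference was -4.23, it was above background on 3 of the 4 high arrays, and its lowest value was that of the array with the most Omp. Il1b, the cytokine interleukin 1 beta, had 195, 143, 403 and 92.5 in the high, 808, 2672, 8338 and 4343 in the middle and 548, 1063, 1096 and 1439 in the low arrays. The middle arrays thus had more Il1b than the low arrays in 3 of 4 cases, with Omp signals above them.

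Il1rn, the antagonist of the interleukin 1 receptor, was not above background on any high array and gave 157, 122, 414 and 130 in the low arrays, at least 4.57-fold more. Csf3, the growth factor of neutrophils, was likewise not above background on any high array and at least 3.20-fold higher in the low arrays, where it gave 64.8, 194, 159 and 124. For Bst1, a surface enzyme of myeloid and stromal cells, the bound was 3.74-fold. Slpi, a secreted protease inhibitor, had 3730, 1486, 4071 and 385 in the high against 5925, 5041, 7353 and 11546 in the low arrays. Also among the 15 largest were Ubd (-2.23), a ubiquitin-like protein induced by cytokines, Plaur (-2.14), the urokinase receptor, and Ptgs2 (-1.998), the inducible cyclooxygenase. Plaur was above background on 2 of 4 high arrays, and averaged over its 2 probe sets its difference was -1.004.

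Leukocyte genes lay lower in the high than in the low arrays. Of 44 measured, 11 opposed Omp and none followed it, 42 had a negative difference, and the median was -0.78. Itgax, the integrin of dendritic cells and macrophages, gave 97.6, 93.1, 171 and 40.4 in the high, 162, 765, 207 and 293 in the middle and 269.7, 322, 467 and 518 in the low arrays. Cd3d, a subunit of the T cell receptor complex, gave 62.7, 116, 98.3 and 59.0 in the high, 618, 347, 745 and 149.5 in the middle and 344, 151, 222 and 290.4 in the low arrays. The other opposing leukocyte genes were Ptprc, Cd68, Itgb2, Aif1, Laptm5, Tyrobp, Fcer1g, Coro1a and Cd53, with differences from -1.44 for Cd53 to -1.01 for Aif1. They include genes used by all leukocytes and genes of macrophages.

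Genes of MHC class II, which present peptides to T helper cells, all had a negative difference, and 6 of 9 met the rule: RT1-Ba, RT1-Da, RT1-Db1, RT1-DMb, Ciita and Ctss. RT1-Ba had 2580, 2420, 3638 and 2045 in the high, 16946, 10056, 13256 and 5213 in the middle and 7380, 5834, 5754 and 8391 in the low arrays. Averaged over all 4 of its probe sets, the difference of RT1-Ba was -0.99, just short of the limit. The mean level of 8 genes of the list was 10.5 to 11.1 (log2) in the high and 11.55 to 12.2 in the low arrays, with no overlap. The mean over 33 leukocyte genes was 8.59 to 9.01 in the high, 9.65 to 10.5 in the middle and 9.44 to 9.92 in the low arrays, so the middle arrays, with more Omp than the low ones, had the higher mean of the 2 sets, at 10.2 against 9.66.

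Of 33 interferon response genes, 6 opposed Omp and none followed it, with a median difference of -0.66. Ifit3, an antiviral protein, gave 172, 97.7, 192 and 68.2 in the high, 179, 779.7, 2712 and 824 in the middle and 295, 331, 483 and 369 in the low arrays. Psmb8 (-1.14) and Psmb9 (-1.13), subunits of the immunoproteasome, Isg15 (-1.10), Oas1a (-1.09) and Igtp (-1.02) were the others. A motif of TTTC, any 2 bases (NN) and TTTC, the core of the element bound by interferon-activated factors (ISRE), was searched on both strands in the same 250 bases. It stood in 10 of 81 opposing genes with a promoter (12.3%), in 3 of 113 followers (2.65%), in 15 of 533 independent genes (2.81%), in 338 of 11734 genes of the array (2.88%) and in 1140 of all 33469 promoters (3.41%). A motif of GGGA, any base (N) and TTTCC, a core bound by NF-kB, stood in 1 of the 81 (1.23%), Batf, and in none of the 113. It stood in 0.418% of the genes of the array and in 0.314% of all promoters, and its TTTC may overlap the motif before.

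The sequences upstream of Ctss, a protease of antigen processing (chr2:185775330-185775395), Gbp7, a guanylate-binding protein (chr2:233948818-233948887), Ifit3 (chr1:241527252-241527321) and Igtp, an interferon-induced GTPase (chr10:42874914-42874983), are printed 5′ to 3′ on the gene's strand, the plus strand of GRCr8 in each case. They show the position of these letters, in capitals, close to the start of 4 opposing genes. Ctss is in the MHC class II list and Ifit3 and Igtp are in the interferon list, while Gbp7 is in none of the lists. In Ctss and Igtp the letters lie on the other strand and read GAAA, any 2 bases and GAAA. The EBF motif reads the same on both strands.
Ctss: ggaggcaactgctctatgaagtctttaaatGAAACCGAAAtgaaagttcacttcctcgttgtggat
Gbp7: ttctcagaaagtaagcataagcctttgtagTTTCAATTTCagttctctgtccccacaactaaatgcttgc
Ifit3: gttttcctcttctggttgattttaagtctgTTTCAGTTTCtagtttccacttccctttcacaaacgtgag
Igtp: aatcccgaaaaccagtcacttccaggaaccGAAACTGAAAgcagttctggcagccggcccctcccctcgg
The difference between high and low arrays was -1.02 for Ctss, -1.59 for Gbp7, -1.45 for Ifit3 and -1.02 for Igtp. A match is a description of the letters and not of binding.

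The opposing genes did not run evenly along the ranking. Their mean in the middle arrays was above the mean of both outer sets in 80 of 114 genes and between them in 34. Leaving out female respiratory 8 and male respiratory 7, the other 2 middle arrays had a mean above both in 75, between in 38 and below both in 1. Of the followers, 112 of 146 had a middle mean between the outer sets and 33 a mean below both. The median Pearson r with log2 Omp over the 12 arrays was 0.77 for the followers (0.37 to 0.97) and -0.59 for the opposing genes (-0.90 to -0.34), given as a description, since the same arrays chose the genes. An r of 0.8 or more was reached by 57 followers, and one of -0.8 or less by 3 opposing genes. These were Tlr2, a receptor for bacterial lipoproteins, Batf, a transcription factor of lymphocytes, and Rasa3, a Ras regulator. Tlr2 had 82.0, 144, 146 and 128 in the high, 198, 310, 350 and 346 in the middle and 277, 314, 367 and 288.7 in the low arrays.

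The genes with the highest r among those above background on all 12 arrays were Sec14l2, Adcy3, PCOLCE2, Ano2, Plekhb1, Stom, Lingo1, Arnt2, Tspan7 and Mslnl, from 0.97 to 0.92. Sec14l2, a lipid-binding protein, gave 2608, 2028, 1678 and 1499 in the high, 1238, 958, 752 and 847 in the middle and 689, 516, 817 and 589 in the low arrays, a sequence close to the ranking itself. Of these 10 only Arnt2, with a difference of 0.87, was not among the followers. The difference of Lingo1, a neuronal membrane protein, was 1.54 by its brightest probe set and 0.74 averaged over 3 probe sets.

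**Figure D3:**
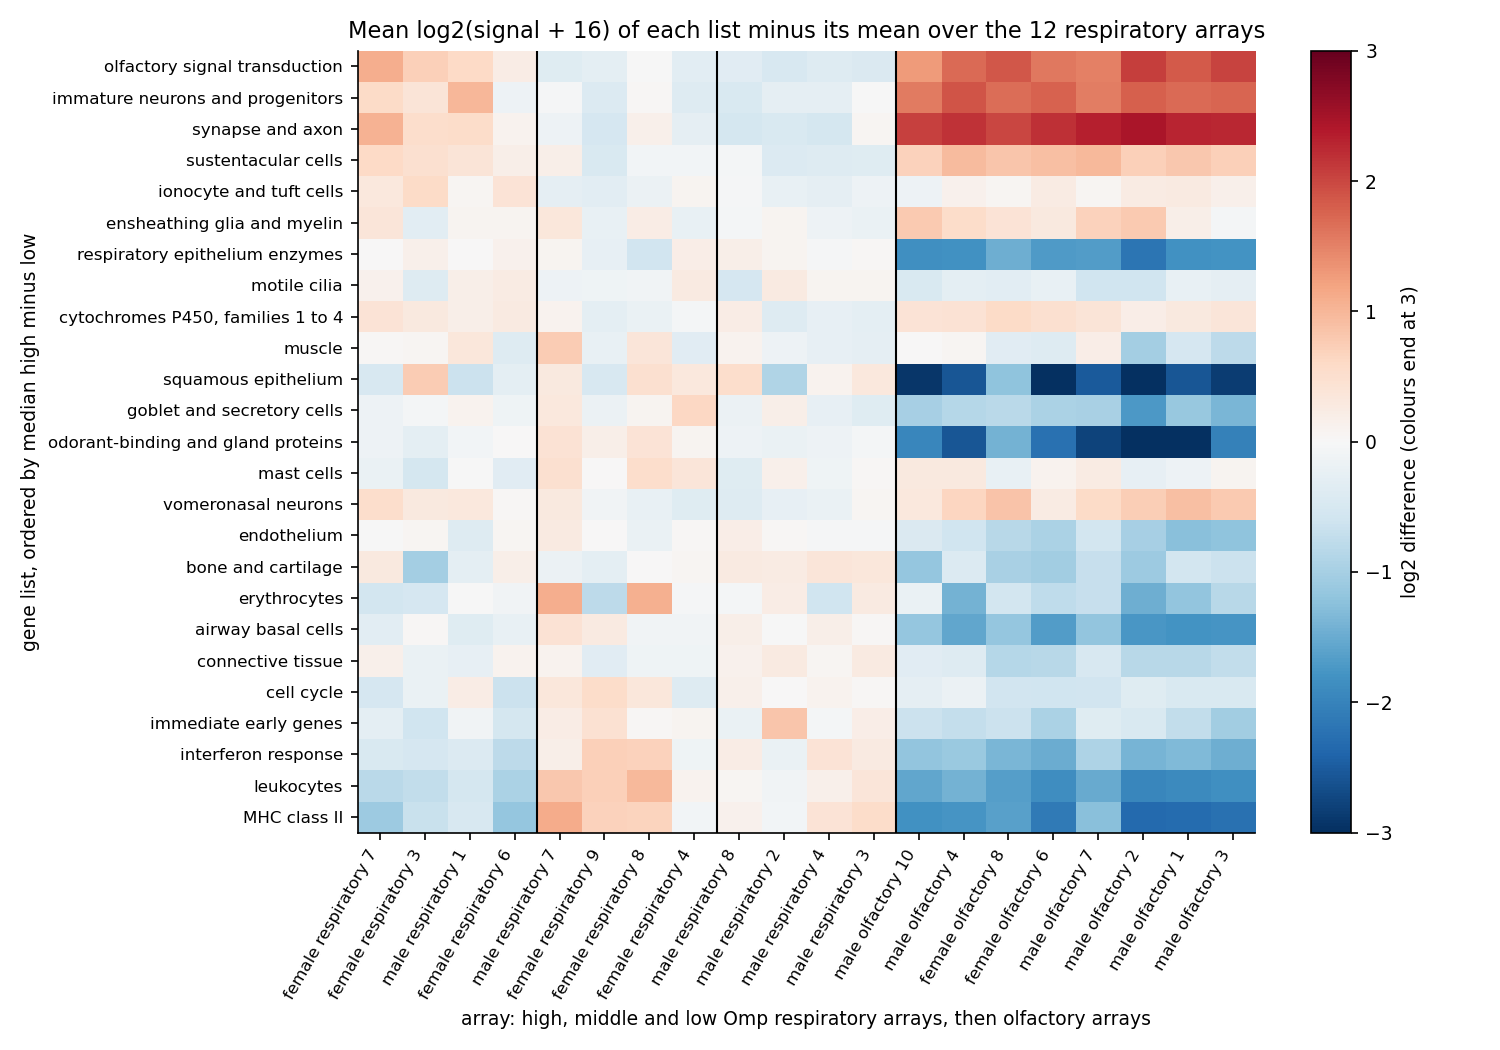
Mean log2(signal + 16) of 25 gene lists on each array, minus the list's mean over the 12 respiratory arrays (colour, in log2 units), over members above background on all 12. Rows run from the largest to the smallest median difference between high and low arrays; signal transduction, synapse and sustentacular lists are red in all high and olfactory arrays, the immature neuron list is so except in female respiratory 6, and leukocyte, MHC class II and interferon lists are blue in both.

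Within the sexes the direction held for nearly all members, though these values reuse the high arrays and are no separate evidence. Against the 3 female middle arrays, the 3 female high arrays were higher for 144 of 146 followers (median difference 1.15) and lower for all 114 opposing genes (median -1.60). The exceptions were Mab21l3, at -0.12, and Nefh, at -0.19. Without overlap they lay above for 83 followers (56.8%, against 11.2% of all genes) and below for 90 opposing genes (78.9%, against 8.43%). Male respiratory 1 minus the mean of the 4 low males had a median of 1.41 for the followers and -0.84 for the opposing genes, and was 1 or more for 120 followers (against 3.4% of all genes) and -1 or less for 41 opposing genes (against 2.67%). A model with sex as a term over the 8 high and low arrays gives these same differences, since no female is in the low set. The opposing genes differed less in male respiratory 1 against the low males than in the high against the middle females. Mmp3 was at -2.15 and -5.06, Il1b at -1.25 and -4.90 and Ifit3 at -0.87 and -3.33, while Cnga2 was at 1.87 and 1.40. The reference sets are unlike, and the middle mean was above the low mean in 80 of the 114 opposing genes. These values are therefore no contrast of the sexes. The difference between these 2 comparisons was not tested. With the RNA integrity number as a term over the 7 high and low arrays that have one, all 146 followers and all 114 opposing genes kept their direction, with medians of 1.19 and -1.16, and 105 and 82 of them met the rules.

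Genes independent of Omp were those above background on all 12 respiratory arrays with a standard deviation of 0.5 or more, a difference between high and low under 0.2 either way, and Pearson and Spearman correlations with log2 Omp under 0.2 either way. There were 651, which is 4.58% of all genes and 26.3% of the 2473 genes that varied this much. Pip, a secreted protein of nasal glands, had 4867, 12014, 13817 and 8483 in the high, 33668, 18099, 36884 and 18871 in the middle and 11883, 4333, 20156 and 11073 in the low arrays. Aurkb, a mitotic kinase, had 1028, 748, 4245 and 3144 in the high and 1089, 3978, 1247 and 1628 in the low arrays, nearly the same range. Ms4a1, the B cell antigen CD20, had 58.9, 65.9, 88.8 and 87.8 in the high, 277, 729, 240 and 145 in the middle and 87.7, 68.2, 78.1 and 119.6 in the low arrays, so that all middle arrays lay above the others.

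The list with the most independent genes was that of squamous epithelium, with 7 of 25: Krt4, Krt13, Krt78, Evpl, Dsc2, Cnfn and Calml3. Its median difference was -0.04, and none of its genes followed or opposed Omp. The most variable independent genes were Mt2A, a metallothionein, Cnfn and Asprv1, of cornified epithelium, Aurkb, Ms4a1, Dnm1l, Pip, Slurp1, Kcnj16 and Pnisr. Without female respiratory 8 and male respiratory 7, which stood apart, only 66 of the 651 (10.1%) had a standard deviation of 0.5 or more, among them 4 of the 7 squamous genes. That of Dnm1l went from 0.96 to 0.13, that of Pnisr from 0.93 to 0.13 and that of Kcnj16 from 0.94 to 0.30, while Cnfn stayed at 1.06 and Asprv1 had 1.09.

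The lists for cells of respiratory epithelium itself are short, and over all genes 1.03% followed and 0.802% opposed Omp. Here and below, a list with no member under the rules is therefore near the share over all genes. None of 29 genes of motile cilia met either rule, all differences lay between -0.30 and 0.33, and the median was 0.04. Tekt2, a protein of ciliary microtubules, gave 1188, 873, 1092 and 975 in the high and 609, 1013, 886 and 834 in the low arrays. Among 25 enzymes of respiratory epithelium there was neither a follower nor an opposing gene, and the median was 0.12. Adh7, an alcohol dehydrogenase of surface epithelia, had 3910, 4828, 1914 and 2417 in the high and 5520, 1623, 1289 and 1310 in the low arrays, which overlap. Duox2, an oxidase that releases hydrogen peroxide, gave 121, 207, 384 and 103 in the high and 275, 923, 758 and 497 in the low arrays, which also overlap, at 384 and 275.

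Basal cell genes had 1 opposing member of 21, the keratinocyte protein Sfn at -1.04, with a median of -0.25. Of 15 ionocyte and tuft cell genes, Gng13 followed and Plcb2 opposed Omp, and 11 had a positive difference, with a median of 0.37. The mean of 10 of them was 9.34 to 9.87 (log2) in the high and 9.01 to 9.25 in the low arrays, with no overlap, and 9.14 to 9.57 in the olfactory arrays. These 10 include Gng13, also a gene of olfactory neurons, which had the list's largest difference (2.36) and an olfactory mean of 14.1. The separation of the sets by this mean can therefore not be credited to the other genes. Bone and cartilage genes had 2 opposing members of 24, Mmp9 (-1.30, or -0.90 averaged over its 2 probe sets) and Spp1 (-1.23), both also made by macrophages. Immediate early genes, which respond quickly to stimuli and handling, had 3 of 33, Ptgs2, Fosl1 (-1.05) and Dusp2 (-1.02), and a median of -0.46. Endothelial, connective tissue, muscle, erythrocyte, mast cell and cell cycle lists had no member under either rule, with medians from -0.41 for 33 cell cycle genes to -0.01 for 28 muscle genes.

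To set these genes beside olfactory epithelium, the 8 olfactory arrays were compared with the 4 middle respiratory arrays, which are in neither the high nor the low set. By limma's adjusted p, 1593 of 14217 genes (11.2%) had a higher signal in the olfactory arrays and 1798 (12.6%) a lower one. These shares include genes under background, while followers and opposing genes had to be above it on the high or the low arrays. The shares over all genes are therefore not matched to them in brightness. Of the 146 followers, 132 were called higher (90.4%), 1 was called lower and 13 were not called, and the median difference was 2.76, against -0.03 over all genes. These 132 make up 8.29% of the 1592 genes other than Omp called higher. Of the 114 opposing genes, 103 were called lower (90.4%) and none higher, with a median of -2.50, and they make up 5.73% of the genes called lower. Of the 651 independent genes, 17 were called higher and 90 lower. Without female respiratory 8 and male respiratory 7, which are 2 of the 4 middle arrays, the shares called were 89.0% of the followers and 84.2% of the opposing genes. Female 8 and male 7 each gave both an olfactory and a middle respiratory array, which this fit took as independent. With animal as a random replicate block the shares were 90.4% and 91.2%. Some other animals gave an olfactory array here and a respiratory array in the high or low set.

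Against all 12 respiratory arrays, which include the high and low ones, 2710 genes (19.1%) had a higher and 3272 (23%) a lower signal in the olfactory arrays, and 34.7% of 31042 probe sets were called in either direction, against 18.1% in the comparison with the middle arrays. Of the followers 132 were called higher and 2 lower, and of the opposing genes 101 were called lower. The RNA integrity number was 8.2 to 8.8 on 7 olfactory and 8.7 to 9.3 on 10 respiratory arrays, so it moved with the tissue. With it as a term, and without the arrays that lack it, the calls went from 10762 to 2525 probe sets against all respiratory arrays and from 5630 to 3387 against the middle ones. In the latter fit 78.1% of the followers were called higher and 77.2% of the opposing genes lower. With sex as a term in the comparison with the middle arrays these shares were 86.3% and 86.8%.

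**Figure D4:**
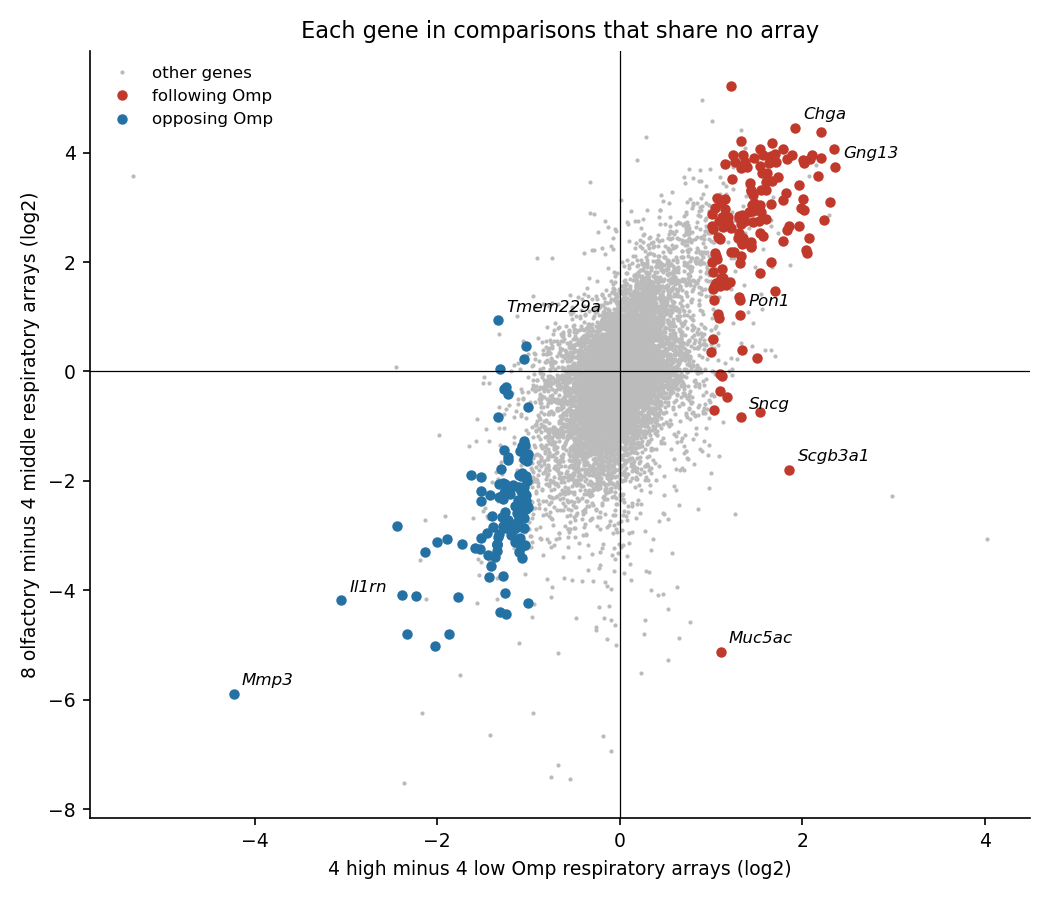
Each point is a gene: its difference between the 4 high and 4 low respiratory arrays (horizontal axis, log2) and between the 8 olfactory and 4 middle respiratory arrays (vertical axis, log2). Most of the 146 followers (red) lie at the upper right and most of the 114 opposing genes (blue) at the lower left; Muc5ac and Scgb3a1 are followers that lie below 0 on the vertical axis.

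Among the neuronal followers Chga was higher in olfactory arrays by 4.45 ± 0.21 (standard error of the fit, limma's adjusted p = 4.4e-10), from 7681 to 11565. Adcy3 was higher by 3.82 ± 0.23 (limma's adjusted p = 8.7e-09) and Cnga2 by 3.96 ± 0.32 (1.6e-07). Cyp2g1 was higher by only 1.48 ± 0.24 (limma's adjusted p = 0.00025), with 22850 to 28274 in the olfactory arrays, close to the 19909 of female respiratory 7. Among the opposing genes Mmp3 was above background on 2 of the 8 olfactory arrays, at 8.89 to 80.6 over all of them, and was at least 59.2-fold lower than in the middle arrays (limma's adjusted p = 2.6e-07). Il1b was lower by 4.79 ± 0.55 (limma's adjusted p = 6.5e-06) and RT1-Ba by 3.40 ± 0.34 (1.5e-06). Cd3d was not above background on any olfactory array, at least 8.99-fold lower than in the middle arrays (limma's adjusted p = 5.5e-06), and Il1rn was at least 10.1-fold lower (1.0e-07). Ifit3 was lower by 2.96 ± 0.49 (limma's adjusted p = 0.00026). For these genes other than Il1rn, which was under background in both, the mean of the high respiratory arrays lay between that of the olfactory and that of the low arrays.

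The mean of the 33 leukocyte genes, 7.59 to 8.12 on the olfactory arrays, was under that of every respiratory array, whose lowest value was 8.59. The mean of the 8 MHC class II genes was 9.30 to 10.4 on the olfactory arrays, just under the 10.5 of female respiratory 6. Leukocyte markers were therefore lower in the high than in the low arrays and lower still in the olfactory arrays, with the most in the middle arrays, and their part in the other opposing genes was not tested.

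Followers not called higher in olfactory epithelium against the middle arrays formed a small group of 14. Muc5ac, the gel-forming mucin of goblet cells, was the one called lower: it had 9122, 9192, 7774 and 13198 in the high, 3797, 2298, 2746 and 11615 in the middle and 5254, 6867, 2241 and 4907 in the low arrays, but 10.1 to 302 in the olfactory arrays, a difference of -5.12 ± 0.53 (limma's adjusted p = 2.2e-06). Scgb3a1, a secretoglobin of airway secretory cells, had 2202, 588, 809 and 1610 in the high, 1436, 723, 1699 and 463 in the middle and 364, 406, 484 and 112 in the low arrays, and 32.0 to 1347 in the olfactory arrays, where the difference of -1.80 ± 0.69 was not called (limma's adjusted p = 0.083). Both are markers of secretory cells, and they were the only 2 of 20 goblet and secretory cell genes to follow Omp, with a list median of -0.05. Sncg, gamma-synuclein, had 2059, 938, 920 and 1194 in the high and 500, 461, 582 and 369 in the low arrays, and its olfactory median of 687 lay between them.

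Of the rest of this group, Cryba2, Rhox5, C2h1orf56, P4ha3, A1bg and Akr1c13 had an olfactory mean under that of the high arrays, as did Prtg and Cdc14b. Mab21l3, Nefh and Pon1 had an olfactory mean above it and were not called against the middle arrays. Against all 12 respiratory arrays Pon1 (1.45, limma's adjusted p = 0.0013) and Nefh (0.94, 0.021) were called higher and Akr1c13 (-0.99, 0.021) lower. Pon1, paraoxonase 1, was called without female respiratory 8 and male respiratory 7 (1.71, limma's adjusted p = 0.018), against 1.04 with them, and its difference between high and low arrays was 1.32, or 0.50 averaged over its 2 probe sets. The 11 opposing genes not called lower were Lpar2, Nckap5l, Npffr1, Plcb2, Rasa3, Spp1, Sult1c2a, Tmem229a, Ugt2b34l1, Wdfy4 and Wnt7a. Rasa3 missed the threshold narrowly (limma's adjusted p = 0.055) and was called lower against all 12 respiratory arrays (-1.84, adjusted p = 0.00016).

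Some genes were high in olfactory epithelium without following Omp among the respiratory arrays. Mrap, an accessory protein of melanocortin receptors, was 252 to 864 in the olfactory arrays and not above background on any of the 12 respiratory arrays, at least 9.10-fold lower in the middle ones (limma's adjusted p = 1.6e-07). Jph3, a junctional membrane protein of excitable cells, was 364 to 894 in the olfactory arrays and gave 95.8, 91.5, 14.1 and 23.7 in the high and 12.1, 11.5, 77.9 and 72.1 in the low arrays, above background on 2 of 4 in each set. Mt3, a metallothionein found in brain, was above background on all arrays and still did not follow: it gave 712, 297, 484 and 273 in the high, 1490, 206, 659 and 319 in the middle and 467, 489, 468 and 588 in the low arrays, and 1867 to 6041 in the olfactory arrays. Crocc, Ttc9b, Mcpt1, Apc2, Lrrc73, Slc2a3 and Tmem74b were the others named by the same rule, with differences between high and low arrays from -0.32 to 0.46.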

How the data were processed

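RNA of 12 respiratory and 8 olfactory samples was measured on 1 Rat230_2 array each. The deposited values are intensities on a linear scale, made with GCOS 1.0 per the submitters' processing notes; its algorithm and scaling are not stated there. Of 31099 probe sets, 57 controls were left out. The platform annotation names 1 gene for 20826 probe sets and more than 1 for 436 (left unnamed), 9780 stayed unnamed, and a gene is its probe set with the highest mean over 20 arrays.

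High, middle and low sets came from the Omp ranking, compared without a test. Tissues were compared with limma 3.58.1 in R 4.3.3 (log2(signal + 16), variances following intensity, two-sided, Benjamini-Hochberg over 31042 probe sets, calls under 0.05), checked on simulated data. There changes were planted only in probe sets brighter than the median, with independent noise on each array, so the shares recovered do not cover dim genes. The fit against the middle arrays recovered 38% of changes of 1 (log2) and 91% of changes of 2. Against all respiratory arrays these shares were 60% and 98%. So a gene not called may still differ. The high against low rule, without its background condition, recovered 94% of changes of 2. It also called 215 unchanged probe sets among the 31042. No 2 arrays were identical (highest r 0.964).

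Members, lists and rules were chosen with earlier results of these data known. Named genes are the 15 largest differences each way, 10 independent genes by spread, 10 highest and lowest r, 4 per list by difference, followers not higher in olfactory arrays and the 10 highest olfactory genes not following. The other genes were named after their values were seen: list members in small counts, members at a limit, exceptions and genes with a motif.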

Additional observations from a re-analysis of the deposited data

Results flagged for a closer look

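For the genes whose values are printed above, each array was set against the others of its sex and tissue with Dixon's ratio, which by chance marks about 1 group in 20. Of 126 combinations of gene and group 9 were marked. Male respiratory 1, the only male in the high set, stood above the other male respiratory arrays for Cnga2 (log2 level 10.00), Stmn2 (11.99) and Lhx2 (11.04), and below them for Mmp3 (9.10). These are followers and an opposing gene, whose rules had already put male respiratory 1 outside the low males. The choice of genes thus favoured these marks, and the 9 cannot be read against the chance rate. Male respiratory 8 was the highest of its group for Adh7 (12.43) and male respiratory 7 for Mt3 (10.56). Male olfactory 10 was the lowest of its group for Sec14l2 (11.68) and Chga (12.91), and male olfactory 2 for Muc5ac (4.71).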

How the results depend on the processing

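The counts of 146 followers and 114 opposing genes depend on which arrays and limits were used. With a pseudocount of 64 the opposing genes numbered 66. Ranked by the other transduction genes, 125 genes followed and 145 opposed, 86 and 69 of them among the 146 and 114. Within rats of 11 weeks there were 303 followers and 227 opposing genes, within rats of 13 weeks 452 and 587, and these sets hold fewer arrays, which overlap less easily. Male respiratory 1 against the low males gave 457 followers, and the 3 high against the 3 middle female arrays gave 237 followers and 367 opposing genes; both were chosen after seeing the data. With an r of 0.8 in place of no overlap there were 64 and 3. Leaving out single arrays gave 127 to 242 followers (242 without female respiratory 6) and 93 to 210 opposing genes (210 without male respiratory 1, 175 without male respiratory 2). In females alone Mab21l3 turned to -0.1161; the cause was not tested. Nefh, also a follower, turned to -0.19 there. Of the 377 other values of named genes that moved by more than their spread, 150 were of followers or opposing genes and kept their direction, and of the 227 of other genes 54 changed sign. With sex as a term, chosen after seeing the data, 55 genes met the opposing rule, 41 of them among the 114. Of the 146 followers, 120 met their rule in that model.

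Of probe sets called between olfactory and all respiratory arrays, 10762 became 2525 once a term for RNA integrity number was fitted, over fewer arrays; the cause was not tested. The same term, added after seeing the data, left 3387 of 5630 against the middle arrays. With animal as a random replicate block the counts were 10934, and 5833 against the middle arrays (5630 without it), and as a fixed replicate block over animals with both tissues 7949. The share of followers called against the middle arrays ran from 79.6% to 90.9% without single arrays, and that of opposing genes from 80.3% to 90.4%. Sex as a term for high against low was planned only for both sexes in both sets, which did not occur.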
